A study of Mus musculus with 7 samples.

Results

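Axon guidance genes encode the ligands and receptors by which growing axons and migrating cells read their surroundings. The set described here holds the semaphorins of classes 3 to 7 and their receptors, the plexins and neuropilins, the netrins and their receptors Dcc and Unc5, the Slit proteins and their Robo receptors, and the ephrins and their Eph receptors. Members were found by gene symbol, from families proposed with earlier results of these data known, and 71 of the 49315 gene identifiers of the count tables qualified. Of these, 68 are protein coding, 34 of them ligand genes and 34 receptor genes, and the other 3 are transcripts antisense to Plxna4. RNA had been sequenced from primary mouse oligodendroglia that were shaken off newborn brain cultures, depleted of microglia and then kept for 6 days in SATO medium, which lets oligodendrocyte precursor cells (OPCs) differentiate. The 4 control libraries came from wildtype (Klf13-wt) pups and the 3 knockout libraries from Klf13-ko pups. Klf13 is a zinc finger transcription factor of the Krüppel-like family, and these pups lacked it in all of their cells, so that the other cells of the culture carried the knockout as well as the oligodendroglia. The question was how Klf13 loss changes transcription in differentiating oligodendroglia, and for the members it was which families differed between the groups.

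Semaphorins act through plexins, either directly or, for most secreted class 3 members, through a complex with a neuropilin. Netrin-1 attracts through Dcc and repels through Unc5 receptors, Slit proteins repel through Robo receptors, and ephrins signal to Eph receptor tyrosine kinases on the neighbouring cell and back into their own cell. In the oligodendrocyte lineage these cues are known for steering OPC migration and process outgrowth, and several semaphorins and netrin-1 are made by oligodendrocytes themselves.

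Gene positions are given as in the count tables, on GRCm38. The libraries held 24507471 to 59596479 counts on genes, and values below are counts scaled by edgeR's TMM factors to a common library size (normalized counts). Klf13 had 10915, 11769, 11999.5 and 10669.9 normalized counts in the control libraries and 802, 876 and 961 in the knockout libraries, on average 7.76% of the controls. Markers of oligodendrocytes (Mbp, Mog, Mag, Mobp and Cnp) were abundant in every library, but their FPKM values (normalized counts scaled for exon length and library size) summed to 2236 to 2724 in the controls and 714 to 837 in the knockouts. The 8 neuron markers summed to 80.0 to 95.1 in the controls and 136 to 189 in the knockouts, and the 6 astrocyte markers to 487 to 664 in the controls and 948 to 1124 in the knockouts, so that both kinds of marker were present beside those of the labelled cell type. All 8 neuron markers were higher in the knockout, with a median log2 fold change of 1.75 (0.72 to 2.12), as were all 6 astrocyte markers, with a median of 0.84 (0.48 to 1.44), while all 5 oligodendrocyte markers were lower. Of 5 OPC markers 2 were higher, and all 5 had log2 fold changes above 0 (median 0.26). The OPC list summed to 389 to 411 FPKM in the controls and 466 to 494 in the knockouts. The 6 microglia markers summed to 644.9 in control replicate 3 and to 135.7 to 260.0 in the other 6 libraries, and the 6 fibroblast and mural cell markers to 133.7 and 98.1 in control replicates 3 and 4 and to 7.15 to 32.1 elsewhere. Of the endothelial markers, Cldn5, Tek and Tie1 had too few counts to be tested, and the list summed to 0.871 to 2.29 in the controls and 0.638 to 1.03 in the knockouts. As these are bulk libraries, fewer cells of a type and less RNA per cell cannot be told apart. The labels call the libraries biological replicates and say no more, so p-values measure the spread between these libraries only.

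Of the 71 members, 66 had enough counts to be tested, and 32 of them passed the quasi-likelihood test of edgeR at an adjusted p no greater than 0.05, against 23.8% of all 18352 genes tested. In the knockout, 17 were higher and 15 lower, against 11.6% of all genes that were higher and 12.2% that were lower. When a log2 fold change of 1 or more in size was also required, 12 members were higher and 6 lower, against 3.97% and 3.08% of all genes. Calls depended on single libraries. Only 9 members were higher without knockout replicate 2, and over all genes tested the number of higher ones went from 2122 to 850. With the fold threshold, only 7 members were higher without that library or control replicate 4. Groups did not overlap in 19 members with higher and 16 with lower knockout values, while 18.3% and 18.0% of all genes were so separated. The median log2 fold change was 0.12 over the tested members and -0.0037 over all genes, and members moved both ways. Of 33 ligands tested 7 were higher and 11 lower, and of 32 receptors tested 10 were higher and 4 lower. Semaphorins made up 9 of the 11 lower ligands.

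**Figure D1:**
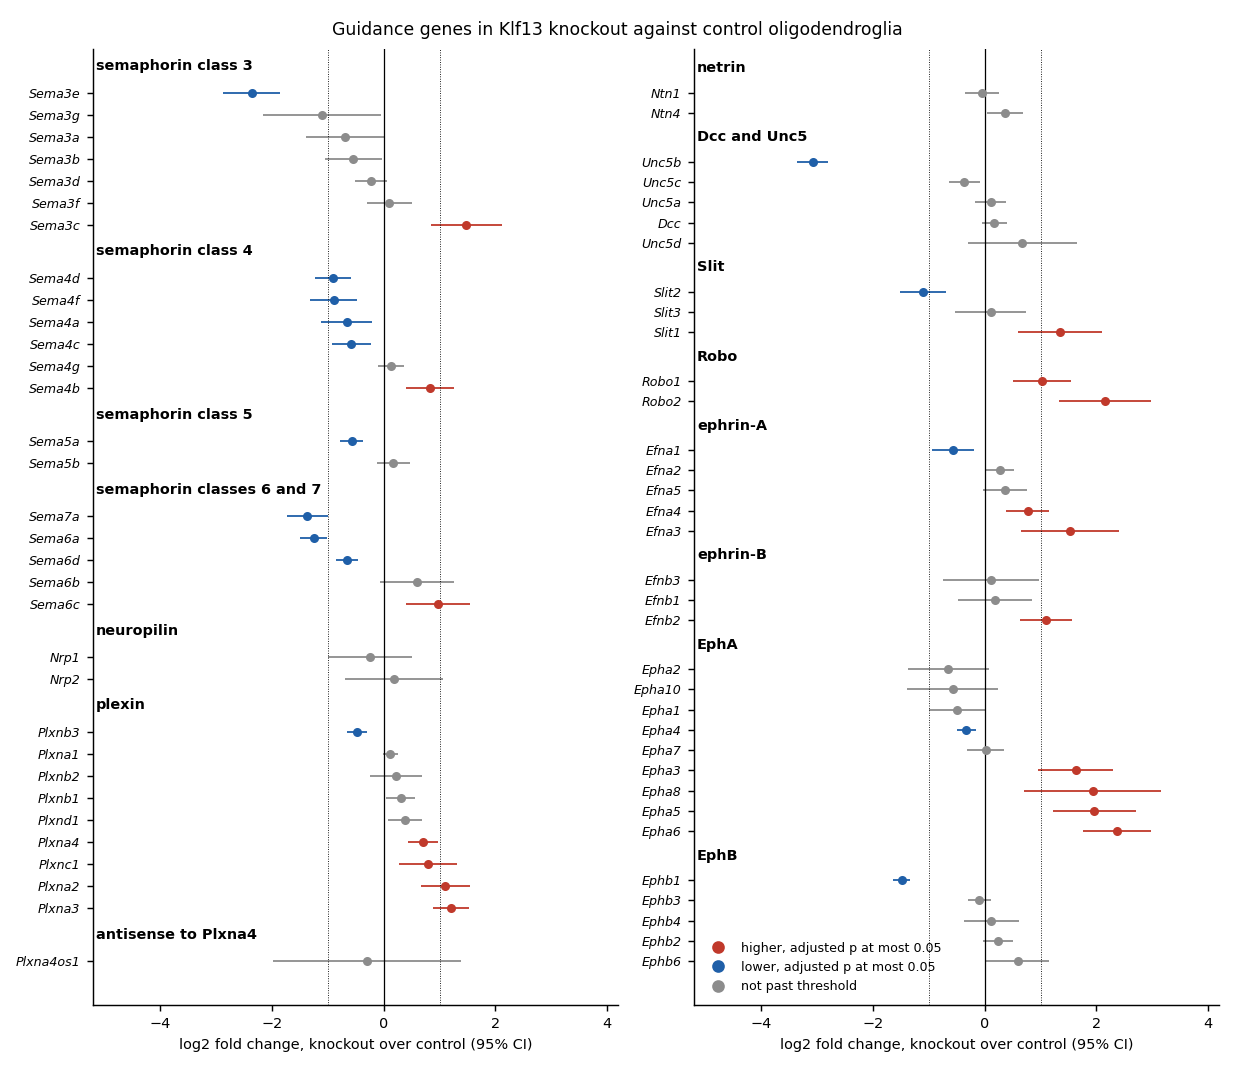
Log2 fold change of each of the 66 tested guidance genes (knockout over control, x axis) by family, with points for the estimate, bars for its 95% confidence interval and dotted lines at an absolute value of 1. Most coloured semaphorins lie left of 0 (9 lower, 3 higher), both Robo receptors lie right of it, and the EphA receptors spread from -0.66 to 2.37.

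The lowest and highest changes among the well counted receptors belonged to Unc5b and Ephb1, which fell, and Robo2 and Epha5, which rose. Their proximal promoters are shown because Klf13 belongs to a family of factors that bind GC-rich boxes near gene starts. Each window runs from 250 bases before to 50 bases after the gene start in RefSeq annotation of GRCm38, reads 5′ to 3′ along the gene's strand and is anchored at the start that the count tables give the gene. Capitals mark the 6 words of 6 letters that make up the Klf motif given in the study's methods, on either strand: A or C, then C, then any base but C, and then CCC.
Unc5b, chr10:60831532-60831831, reverse strand: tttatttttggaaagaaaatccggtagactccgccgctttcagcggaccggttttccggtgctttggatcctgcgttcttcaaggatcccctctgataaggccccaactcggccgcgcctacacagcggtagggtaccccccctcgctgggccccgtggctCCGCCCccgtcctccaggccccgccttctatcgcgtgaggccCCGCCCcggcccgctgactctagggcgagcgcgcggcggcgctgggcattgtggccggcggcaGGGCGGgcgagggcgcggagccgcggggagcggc
Ephb1, chr9:102354644-102354943, reverse strand: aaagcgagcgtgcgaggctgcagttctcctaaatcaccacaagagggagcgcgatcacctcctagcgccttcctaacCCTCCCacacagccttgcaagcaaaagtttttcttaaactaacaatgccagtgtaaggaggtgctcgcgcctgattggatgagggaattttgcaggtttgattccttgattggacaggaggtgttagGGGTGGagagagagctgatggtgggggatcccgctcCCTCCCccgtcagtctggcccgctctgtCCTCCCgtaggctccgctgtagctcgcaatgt
Robo2, chr16:74411776-74412075, reverse strand: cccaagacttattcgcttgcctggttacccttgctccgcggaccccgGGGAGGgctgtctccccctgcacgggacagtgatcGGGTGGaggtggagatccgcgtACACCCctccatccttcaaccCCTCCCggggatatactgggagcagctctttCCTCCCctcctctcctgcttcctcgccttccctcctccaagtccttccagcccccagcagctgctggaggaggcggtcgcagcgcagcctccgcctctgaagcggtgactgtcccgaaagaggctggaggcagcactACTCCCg
Epha5, chr5:84417333-84417632, reverse strand: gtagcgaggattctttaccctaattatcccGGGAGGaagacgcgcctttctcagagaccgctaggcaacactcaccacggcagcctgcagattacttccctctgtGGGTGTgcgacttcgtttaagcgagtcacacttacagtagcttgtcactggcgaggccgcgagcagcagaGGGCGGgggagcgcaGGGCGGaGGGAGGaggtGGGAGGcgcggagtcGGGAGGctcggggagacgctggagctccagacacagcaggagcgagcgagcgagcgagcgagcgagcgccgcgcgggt
The windows of the fallers Unc5b and Ephb1 held 3 and 4 such words, and those of the risers Robo2 and Epha5 held 6 and 7. A window within 500 bases of the start in the files was found for 52 members, and all 52 held at least 1 word, as did 89.7% of the 15669 windows of tested genes and 76.8% of all 32851 windows in the table. The median was 4 words in the 13 windows of higher members, 4 in the 13 of lower members and 6 in the 23 of members that did not pass the test, against 3 in the windows of all tested genes. A word is a match of letters, and binding was not measured in these libraries.

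All 20 semaphorin genes were tested, and 9 were lower (45%, against 12.2% of all genes) and 3 higher (15%, near the 11.6% of all genes) in the knockout, with a median log2 fold change of -0.58. Summed over the family, the semaphorin FPKM ran over 227 to 238 in the controls and 152 to 159.8 in the knockouts. The lower genes were mainly the transmembrane and membrane-anchored classes, with 4 of 6 in class 4, 1 of 2 in class 5 and 3 of 5 in classes 6 and 7. Sema6a, a transmembrane semaphorin that binds class A plexins, had 20757, 18845, 16118 and 16112 normalized counts in the control libraries and 7902, 7165 and 7575 in the knockout libraries. Every knockout library lay far below the lowest control, with a log2 fold change of -1.25 ± 0.11 (SE, adjusted p = 3.78e-04). It was the most abundant member of classes 6 and 7, at 46.6 ± 5.88 FPKM in the controls (SD, n = 4) and 19.6 ± 0.958 in the knockouts (SD, n = 3). Sema4d, a transmembrane ligand of plexin-B1 known from oligodendrocytes, had 12855, 11663, 15327 and 16560.4 normalized counts in the control libraries and 7680.4, 6685 and 8242 in the knockout libraries. The groups were far apart although the controls differed among themselves, and the test gave a log2 fold change of -0.90 ± 0.14 (SE, adjusted p = 0.00474). Per length it was the most abundant class 4 member, at 49.8 ± 7.90 and 26.6 ± 2.78 FPKM.

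Sema7a, the GPI-anchored semaphorin that binds plexin-C1 and integrins, had 1746, 2254, 2609.5 and 1971 normalized counts in the control libraries and 798, 966 and 733 in the knockout libraries. The highest knockout library stayed well below the lowest control, with a log2 fold change of -1.36 ± 0.16 (SE, adjusted p = 0.00171). Sema5a, a transmembrane ligand with thrombospondin repeats, fell less, from 13173, 12601, 14954 and 13231 to 8870.1, 8336 and 9959 normalized counts, with a log2 fold change of -0.58 ± 0.09 (SE, adjusted p = 0.00456). Sema4f, at low levels, had 305, 383, 362 and 254 in the control libraries and 193, 187 and 147 in the knockout libraries, and its groups did not overlap (-0.90 on the log2 scale, SE 0.18, adjusted p = 0.0131). The other lower members of these classes were Sema6d, Sema4a and Sema4c, with log2 fold changes of -0.66, -0.66 and -0.58. Sema4a (adjusted p = 0.0445) no longer passed with the replicate number as a block (adjusted p = 0.0665) or without any 1 of control replicates 1, 3 and 4 and knockout replicates 1, 2 and 3 (adjusted p up to 0.153). Sema4c (adjusted p = 0.0297) was lost without control replicate 2, knockout replicate 1 or knockout replicate 3 (up to 0.102). Sema6c and Sema4b were the transmembrane semaphorins that rose, by 0.97 and 0.83, and both lost the call without knockout replicate 2 (adjusted p = 0.101 and 0.0636). Sema6c was also lost without control replicate 3 or knockout replicate 1 (adjusted p = 0.0572 and 0.0513). Sema4g, Sema5b and Sema6b had log2 fold changes of 0.13, 0.18 and 0.60 and did not pass, though Sema6b did with the share of counts on 3 genes where ribosomal RNA reads collect (ribosomal read share) as covariate (adjusted p = 0.177 and 0.00641).

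Of the 7 secreted class 3 semaphorins 1 was lower and 1 higher, 14.3% each, near the 12.2% and 11.6% of all genes, and their summed FPKM of 28.3 to 36.5 in the controls and 27.8 to 29.7 in the knockouts overlapped. Sema3e, at chr5:14025276-14256689, signals through plexin-D1 without a neuropilin and had 662, 646, 909.9 and 985 normalized counts in the control libraries and 189.6, 129 and 153 in the knockout libraries. On average the knockouts kept 19.6% of the control level, the lowest share of any semaphorin, with a log2 fold change of -2.36 ± 0.22 (SE, adjusted p = 5.61e-04). Sema3c, on the same chromosome at chr5:17574281-17730268, had 747, 813, 527 and 356 in the control libraries and 1587, 1992 and 1527 in the knockout libraries. All knockouts were above all controls, control replicates 3 and 4 lay lowest, and the test gave a log2 fold change of 1.48 ± 0.27 (SE, adjusted p = 0.00930). Of the summed FPKM of the class, Sema3c took 3.11% to 9.15% in the controls and 17.0% to 22.9% in the knockouts, and Sema3e 5.58% to 7.55% in the controls and 1.13% to 1.57% in the knockouts. The most abundant class 3 member was Sema3d, with 8776, 8489.9, 8948 and 11743 normalized counts in the control libraries and 8610.2, 7464 and 8184 in the knockout libraries. Its knockouts lay at the low end of the controls, and with a log2 fold change of -0.23 ± 0.12 (SE, adjusted p = 0.220) it did not pass. The remaining class 3 genes, Sema3a, Sema3b, Sema3f and Sema3g, had log2 fold changes from -1.11 to 0.10, and none passed.

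**Figure D2:**
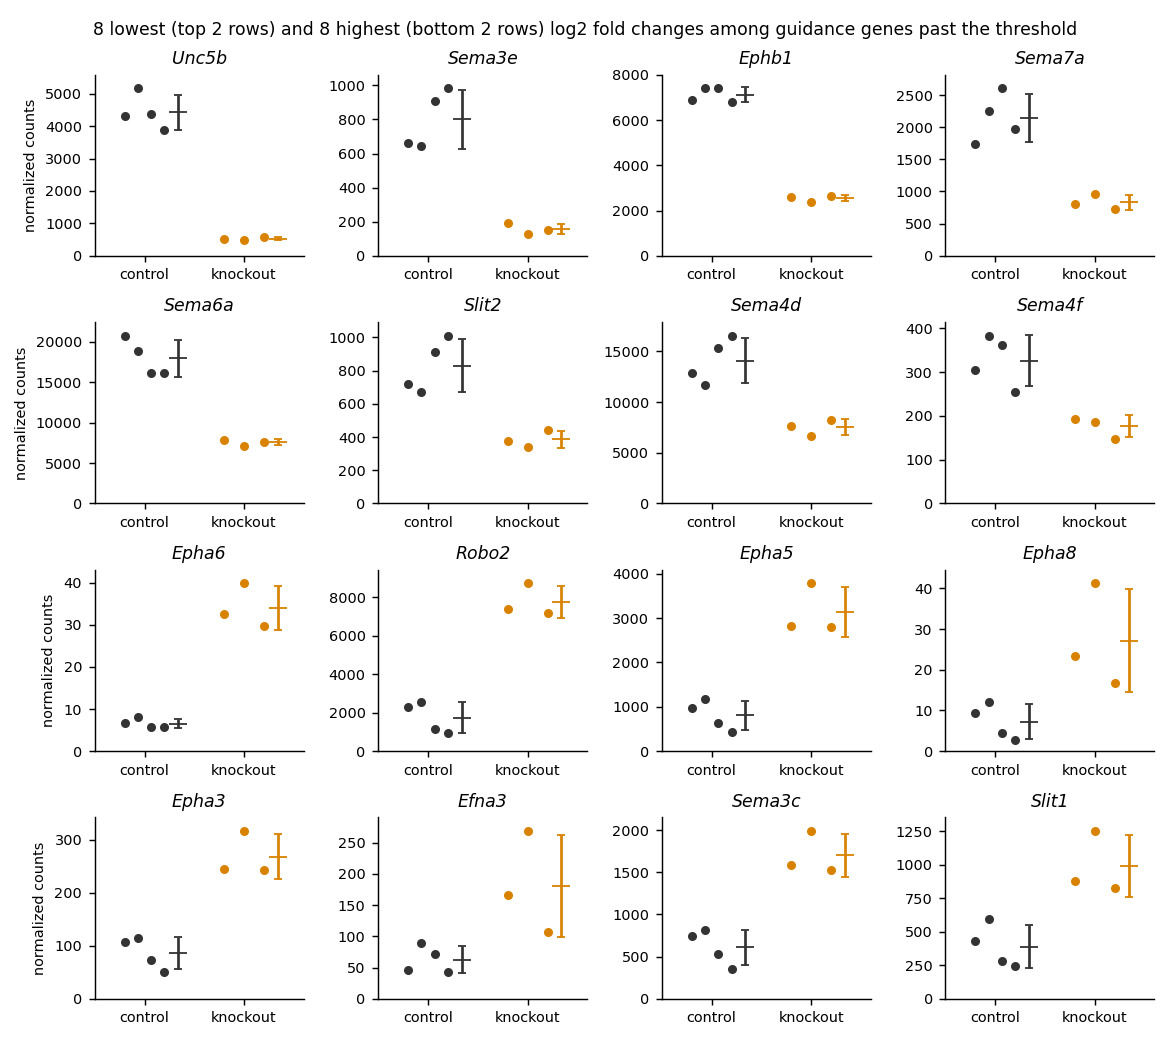
Normalized counts (y axis, from 0) in each control (dark points, n = 4) and knockout library (orange points, n = 3), with the mean and SD beside them, for the 8 lowest and 8 highest log2 fold changes among members past the threshold. In all 16 genes the groups are apart, and in Robo2, Epha5, Sema3c and Slit1 the controls split into a higher and a lower pair.

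Neither neuropilin, the co-receptors of class 3 semaphorins, passed the test. Nrp1 had 1603, 1473, 3403 and 1620.3 normalized counts in the control libraries and 1424, 1522 and 2145 in the knockout libraries, with a log2 fold change of -0.25 ± 0.32 (SE, adjusted p = 0.625). Nrp2 had 2129, 1874, 4906 and 1794 in the control libraries, against 2401, 2915 and 3799 in the knockout libraries, with a log2 fold change of 0.19 ± 0.38 (SE, adjusted p = 0.767). In both genes control replicate 3 stood far above the other controls and knockout replicate 3 was the highest knockout, as in the microglia markers, and the part of such cells in these values was not tested. Without control replicate 3, Nrp2 had a log2 fold change of 0.65 and passed (adjusted p = 0.0356), while Nrp1 did not (0.12, adjusted p = 0.653). Plxnb2, singled out after its values were seen, had the same order, with 7576, 8184, 12555 and 7012 in the control libraries and 9497, 9979 and 11498 in the knockout libraries. It passed without control replicate 3 (adjusted p = 0.0198) and did not with all libraries (0.474).

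Among the 9 plexins, the main semaphorin receptors, 4 were higher (44.4%, against 11.6% of all genes) and 1 was lower (11.1%, near the 12.2% of all genes), while their summed FPKM of 143 to 154 in the controls and 145 to 149.8 in the knockouts overlapped. The lower one was the most abundant guidance gene of all, Plxnb3, a receptor of Sema5a, at 73.4 ± 5.41 FPKM in the controls and 52.7 ± 3.27 in the knockouts. It had 21610.1, 19489, 19891 and 22811 normalized counts in the control libraries and 16065, 14247 and 14792 in the knockout libraries. The groups did not overlap, with a log2 fold change of -0.48 ± 0.08 (SE, adjusted p = 0.00591). Plxna3, at chrX:74329066-74344689, a class A plexin that pairs with neuropilins, had 1009, 1007, 679 and 827 in the control libraries and 2031, 2041 and 1988 in the knockout libraries. The 3 knockout libraries were close to each other and all of them were far above the highest control, with a log2 fold change of 1.20 ± 0.14 (SE, adjusted p = 0.00161). The other higher members were Plxna2, Plxna4 and Plxnc1, with log2 fold changes of 1.10, 0.71 and 0.79. Plxnc1 (adjusted p = 0.0413) lost its call without control replicate 1 or 2 or any 1 of the knockouts (adjusted p up to 0.115). Plxnb1, the receptor of Sema4d, and Plxnd1, that of Sema3e, did not pass (0.30 and 0.38 on the log2 scale, adjusted p = 0.0904 and 0.0773), but both passed with the replicate number as a block (adjusted p = 0.0207 and 0.0475). Plxnd1 also passed with the DESeq2 test of the study (adjusted p = 0.0457), with the ribosomal read share as covariate (0.0411), with control replicates 1 and 2 only (0.0211) and without control replicate 3 (0.0165), and Plxnb1 without control replicate 2 (0.0398). Thus Sema4d, Sema3e and Sema7a were lower, while of the receptors named here for them Plxnc1 was higher, and whether Plxnb1 and Plxnd1 passed depended on the fit. Plxna1 had a log2 fold change of 0.12 and did not pass (adjusted p = 0.186). Plxna4os1, antisense to Plxna4, did not pass (95% confidence interval on the log2 scale -1.97 to 1.39), and its exons overlap those of no other gene in the files. Plxna4os3 shares 27.3% of its exon length with Plxna4, and since no strand setting of the counting is given in the sources used here, reads from that stretch cannot be told apart.

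Netrin ligands did not pass the test. Ntn1, the secreted netrin-1, had 2818, 3712, 4098 and 3541 normalized counts in the control libraries and 3329, 3842 and 3085 in the knockout libraries, and the values interleaved. Its log2 fold change had a 95% confidence interval of -0.36 to 0.26 (adjusted p = 0.819). Ntn4, a laminin-related netrin of basement membranes, had 593, 772, 814 and 591 in the control libraries, against 825, 938 and 903 in the knockout libraries. All knockouts were above all controls, but with a log2 fold change of 0.36 ± 0.14 (SE, adjusted p = 0.0995) it did not pass, while it did without control replicate 3, and likewise with the ribosomal read share as covariate (adjusted p = 0.0495 and 0.0166).

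Of the netrin receptors, Unc5b passed and fell further than any other member, and the call of Unc5c depended on the fit. Unc5b, at chr10:60762610-60831581, a repulsive netrin receptor that also acts as a dependence receptor, had 4300.4, 5179, 4361 and 3896 normalized counts in the control libraries and 507, 485 and 577 in the knockout libraries. The knockout libraries were close to each other and averaged 11.8% of the controls, with a log2 fold change of -3.08 ± 0.12 (SE, adjusted p = 2.14e-05). At 17.2 ± 2.09 FPKM it was the most abundant of the 5 Dcc and Unc5 genes in the controls, and at 2.03 ± 0.188 it was no longer so in the knockouts. Its share of the summed FPKM of these 5 genes was 57.4% to 64.7% in the controls and 16.0% to 18.0% in the knockouts. Unc5c, the next in level, took 21.2% to 28.7% in the controls and 42.4% to 48.0% in the knockouts, with a log2 fold change of -0.36 of its own (adjusted p = 0.0612). It passed with the DESeq2 test of the study (adjusted p = 0.0304), with the ribosomal read share as covariate (0.0214), with control replicates 1 and 2 only (0.0211) and without control replicate 3 (0.00862). The sum ran over 26.2 to 31.7 in the controls and 11.8 to 12.5 in the knockouts. Dcc itself, the attractive receptor, had 799, 739, 709 and 697 normalized counts in the control libraries and 749, 804 and 925 in the knockout libraries, and its log2 fold change had a 95% confidence interval of -0.06 to 0.39. For Unc5a and Unc5d the intervals were -0.18 to 0.39 and -0.31 to 1.64.

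**Figure D3:**
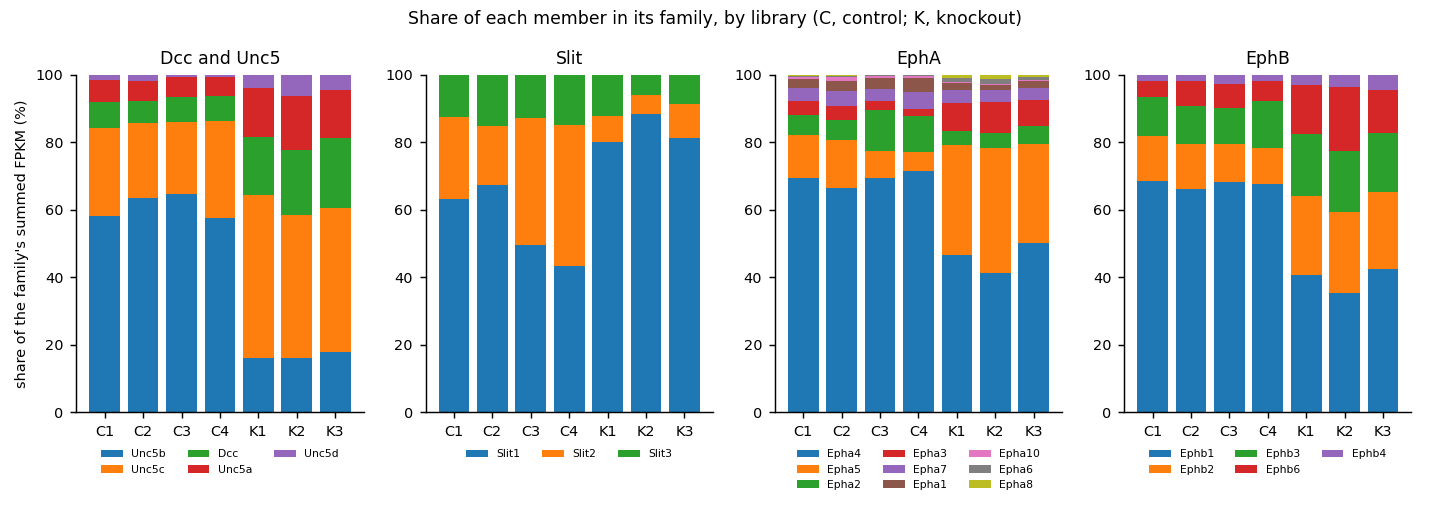
Share of each member (%) in the summed FPKM of its family, in each control (C1 to C4) and knockout library (K1 to K3), for 4 families. Unc5b takes 57.4% to 64.7% of its family in the controls and 16.0% to 18.0% in the knockouts, the shares of Slit1 and Epha5 are larger in the knockouts, and those of Slit2 and Ephb1 smaller.

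The 3 Slit genes divided, and both tested Robo genes rose. Slit2, at chr5:47983138-48307733, a secreted repellent, had 719.7, 672, 914 and 1011 normalized counts in the control libraries and 374, 340.2 and 442 in the knockout libraries. Every knockout was below every control, with a log2 fold change of -1.10 ± 0.17 (SE, adjusted p = 0.00537). Slit1, at chr19:41600257-41743665, had 433, 594, 281 and 243 in the control libraries and 879, 1252 and 829 in the knockout libraries. All knockouts were above all controls, with a log2 fold change of 1.35 ± 0.32 (SE, adjusted p = 0.0226), but the call was lost without knockout replicate 2 (adjusted p = 0.0856). Of the summed Slit FPKM, Slit1 took 43.3% to 67.2% in the controls and 79.9% to 88.4% in the knockouts, and Slit2 17.7% to 41.9% in the controls and 5.59% to 10.1% in the knockouts. For Slit3 the 95% confidence interval was -0.52 to 0.74.

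Robo2, the receptor shown above with its promoter, lies at chr16:73892306-74411825 and had 2321, 2566, 1170.5 and 939 normalized counts in the control libraries and 7381, 8738 and 7212 in the knockout libraries. The knockout mean was 4.45 times the control mean, and control replicates 1 and 2 lay above 3 and 4. The test gave a log2 fold change of 2.15 ± 0.35 (SE, adjusted p = 0.00621), and with control replicates 1 and 2 as the only controls the log2 fold change was 1.67 (adjusted p = 9.12e-04). Robo1, also a Slit receptor, had 802, 838, 551 and 446 in the control libraries, against 1361, 1463 and 1194 in the knockout libraries, with a log2 fold change of 1.02 ± 0.22 (SE, adjusted p = 0.0163) that was lost without knockout replicate 2 (adjusted p = 0.0635). The summed Robo FPKM was 2.67 to 6.08 in the controls and 13.6 to 16.5 in the knockouts. Robo3 and Robo4 had at most 7 counts in any library and were not tested.

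Of the 8 ephrins, 3 were higher (37.5%, against 11.6% of all genes) and 1 lower (12.5%, near the 12.2% of all genes). Efnb2, a transmembrane ephrin of many Eph receptors, had 1102, 1393, 1034 and 794 normalized counts in the control libraries and 2123, 2820.3 and 1978 in the knockout libraries. All knockouts were above all controls, with a log2 fold change of 1.10 ± 0.20 (SE, adjusted p = 0.00892). Efnb3, the most abundant ephrin at 10.7 ± 4.28 FPKM in the controls and 11.5 ± 4.73 in the knockouts, had 1316, 2279, 1563 and 842 in the control libraries, against 1334, 2368 and 1137 in the knockout libraries. Here the spread within each group exceeded the difference between them, with an interval of -0.75 to 0.97 (adjusted p = 0.866). Efna2, the most abundant of the GPI-anchored A ephrins, had 564, 665, 602 and 553 in the control libraries and 684, 819 and 649.7 in the knockout libraries and did not pass (0.27 on the log2 scale, adjusted p = 0.125), though it did with the ribosomal read share as covariate (adjusted p = 0.0143). Efna3 had 45.9, 89.5, 72.0 and 43.1 in the control libraries, against 166, 269 and 107 in the knockout libraries, with a log2 fold change of 1.53 ± 0.38 (SE, adjusted p = 0.0261). Efna4 had 60.8, 66.4, 58.3 and 67.4 in the control libraries, against 117, 117 and 90.6 in the knockout libraries, with a log2 fold change of 0.77 ± 0.16 (SE, adjusted p = 0.0155). Both A ephrins rose at low levels, share 14.1% and 10.5% of their exon length with a neighbouring gene and lost the call without knockout replicate 2 (adjusted p = 0.0965 and 0.0665) or knockout replicate 1 (0.0594 and 0.0565). Efna3 was also lost without control replicate 1 or 4 (0.0531 and 0.0563). Efna1, which lies next to them at chr3:89271733-89281142, fell by 0.57 on the log2 scale (adjusted p = 0.0405). That call was lost with the replicate number as a block (adjusted p = 0.0867) and without any 1 library except control replicate 3 (up to 0.136). Efna5 and Efnb1 had log2 fold changes of 0.36 and 0.18 and did not pass (adjusted p = 0.173 and 0.692), though Efnb1 did with the covariate (0.0293).

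Of the Eph receptors, which are the receptor tyrosine kinases of the ephrins, 4 of 14 were higher (28.6%, against 11.6% of all genes) and 2 lower (14.3%, near the 12.2% of all genes), and all 4 that rose were EphA. Ephb1, at chr9:101922128-102354693, a receptor of B ephrins, had 6867, 7416, 7398 and 6784 normalized counts in the control libraries and 2598, 2384 and 2653 in the knockout libraries. Both groups were tight and far apart, with a log2 fold change of -1.48 ± 0.06 (SE, adjusted p = 2.58e-05). It was the most abundant Eph receptor in the controls at 23.1 ± 1.10 FPKM, against 8.27 ± 0.462 in the knockouts, and its share of the EphB sum was 66.0% to 68.6% in the controls and 35.4% to 42.3% in the knockouts. Ephb2, Ephb3, Ephb4 and Ephb6 had log2 fold changes of 0.24, -0.10, 0.12 and 0.59 and did not pass, though Ephb6 did with the ribosomal read share as covariate (adjusted p = 0.00590).

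Epha4, which binds A and B ephrins, was the most abundant EphA receptor and fell, from 2563, 2585, 2764 and 2594 to 1937, 2028 and 2305 normalized counts. The groups were apart by less than the range of the knockouts, with a log2 fold change of -0.33 ± 0.07 (SE, adjusted p = 0.0168), and the call was lost without control replicate 4, knockout replicate 1 or knockout replicate 2 (adjusted p = 0.0523, 0.0844 and 0.0654). Epha5, at chr5:84054761-84417382, a receptor of A ephrins, had 982, 1164, 639 and 433 in the control libraries and 2826, 3783 and 2797 in the knockout libraries. The knockout mean was 3.90 times the control mean and the groups were far apart, with a log2 fold change of 1.96 ± 0.32 (SE, adjusted p = 0.00628) and a value of 1.54 against control replicates 1 and 2 alone. Epha3 had 108, 116, 73.2 and 50.5 in the control libraries, against 246, 317 and 242 in the knockout libraries, with a log2 fold change of 1.63 ± 0.29 (SE, adjusted p = 0.00798). Epha6, with 6.75, 8.04, 5.72 and 5.62 in the control libraries and 32.5, 39.9 and 29.7 in the knockout libraries, and Epha8, with 9.45, 12.1, 4.57 and 2.81 in the control libraries, against 23.5, 41.2 and 16.8 in the knockout libraries, rose by 2.37 and 1.93 (adjusted p = 0.00139 and 0.0362). These 2 were among the least abundant members, at 0.146 ± 0.0226 and 0.131 ± 0.0611 FPKM in the knockouts, and Epha8 lost its call without control replicate 1, 3 or 4 or knockout replicate 1 or 2 (adjusted p up to 0.146). In the EphA sum the share of Epha5 was 5.74% to 14.4% in the controls and 29.3% to 37.0% in the knockouts, and that of Epha4 66.3% to 71.4% in the controls and 41.3% to 50.2% in the knockouts. The sum itself ran over 10.3 to 11.2 in the controls and 11.8 to 13.9 in the knockouts. Epha1, Epha2, Epha7 and Epha10 did not pass, with log2 fold changes from -0.66 to 0.02.

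Per length, the members that fell and those that rose started from different levels in the controls. The mean control FPKM had a median of 14.8 over the lower members, from 0.742 for Slit2 to 73.4 for Plxnb3, and of 1.56 over the higher members, from 0.0281 for Epha6 to 4.63 for Plxnc1. In the knockouts the medians were 5.91 and 3.79, so the levels lay closer together there. A change shifts the level of the group it is read in, so the bins were counted in each group. Of the 15 members at 10 FPKM or more in the controls, 9 were lower and 0 higher, while 20.8% of the 4906 genes at that level were lower and 10.2% higher. Of the 13 members at that level in the knockouts, 5 were lower and 1, Robo2, was higher, beside 16.2% and 14.2% of 4802 genes. Unc5b, Ephb1, Sema7a and Sema4c were at that level in the controls only. Between 1 and 10 FPKM by the control level, 12 of 32 members were higher and 5 lower, beside 12.95% and 12.44% of 7630 genes. By the knockout level 14 of 36 were higher and 7 lower, beside 13.61% and 12.84% of 7744 genes. Below 1 FPKM by the control level, 5 of 19 were higher and 1 lower, beside 10.92% and 4.73% of 5816 genes. By the knockout level 2 of 17 were higher and 3 lower there, beside 6.61% and 8.15% of 5806 genes. The sum over all members was 494 to 539 in the controls and 419 to 451 in the knockouts.

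**Figure D4:**
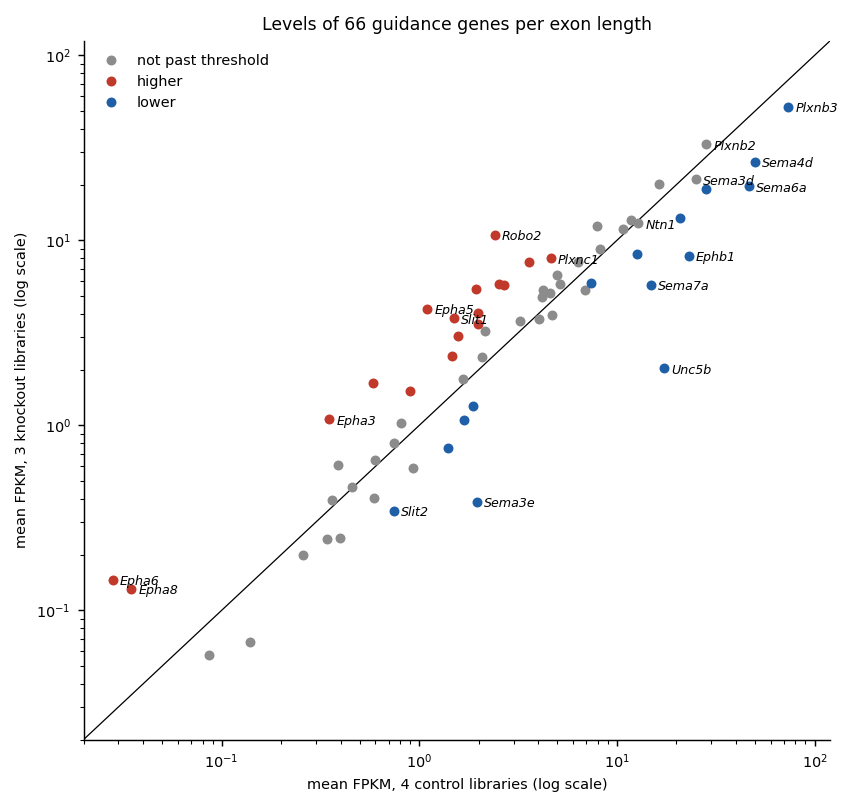
Mean FPKM of the 66 tested members in the knockouts (n = 3, y axis) against the controls (n = 4, x axis), both on log scales, with equality as the line. Blue points, the lower members, reach the top of the range (Plxnb3, Sema4d and Sema6a), and red points, the higher members, stay at or below 10.7 FPKM in the knockouts (Robo2).

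The controls were not alike for the higher members. In 14 of the 17 higher members control replicates 1 and 2 were both above control replicates 3 and 4, as in 57.2% of all higher genes and 21.5% of all genes tested. The ratio of the means of these pairs was 2.32 for Robo2, 2.00 for Epha5 and 1.96 for Slit1. Fibroblast and mural cell markers were high in control replicates 3 and 4, at 133.7 and 98.1 summed FPKM against 32.1 and 20.2 in control replicates 1 and 2, and their part in these values was not tested. Of the neuron markers, higher in the knockout like these members, 6 of 8 had control replicates 1 and 2 both above 3 and 4, and so did 4 of 6 astrocyte markers. The summed neuron FPKM of 81.7, 95.1, 81.1 and 80.0 in the 4 controls has that order too, but control replicate 1 lies only just above 3. Tubb3 and Map2, the most abundant and least changed of the list, make up most of that sum. Among the lower members the opposite order, control replicates 3 and 4 both above 1 and 2, was found in 6 of 15, as in 32.1% of all lower genes, 18.2% of all genes tested and 5 of 6 fibroblast and mural cell markers. The ratio of the mean of control replicates 1 and 2 to that of 3 and 4 was 0.69 for Sema3e, 0.72 for Slit2 and 0.77 for Sema4d. With control replicates 1 and 2 as the only controls, the log2 fold changes of Slit1 and Sema3c were 0.94 and 1.12 (adjusted p = 0.0497 and 0.00646), and 6 in place of 12 members were higher at the fold threshold. Counts on Gm42418, Gm23935 and Lars2, which give the ribosomal read share, made up 14.1% to 18.0% in 4 libraries of both groups and 6.03% to 7.56% in the other 3, of which 1 was a knockout. The oligodendrocyte markers were lower in the knockout beside the 15 lower members. All 6 fibroblast and mural cell markers had log2 fold changes below 0 (median -2.39, 1 passed), as had all 6 microglia markers (median -0.50, lowest adjusted p = 0.467, for Csf1r). The neuron and astrocyte markers, and 2 of 5 OPC markers, were higher beside the 17 higher members. The part of these cell types in the members' values was not tested.

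**Figure D5:**
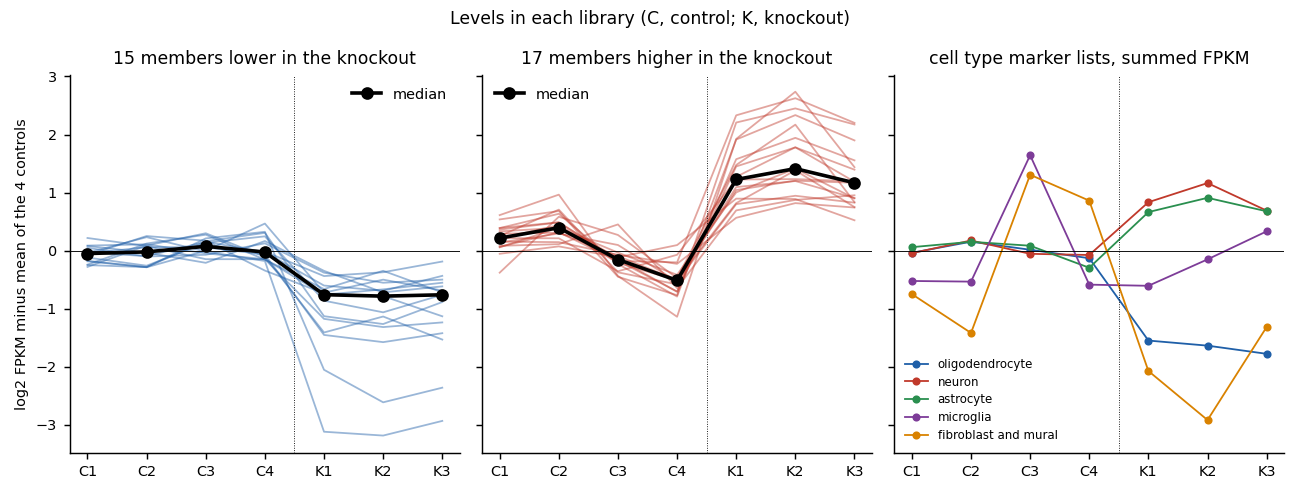
Log2 FPKM minus the mean of the 4 controls in each control (C1 to C4) and knockout library (K1 to K3) for the 15 lower members, the 17 higher members and the summed FPKM of 5 cell type marker lists, with each line a gene or list and the black line the median of the members. The higher members are raised in C1 and C2 relative to C3 and C4, and the microglia and fibroblast lists peak in C3.

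Beyond the ligands and receptors, 72 genes for cofactors, alternative receptors and cytoplasmic effectors of these pathways were followed, and 20 were higher and 11 lower, against 11.6% and 12.2% of all genes. The median log2 fold change over these 72 was 0.07. Rgs3, an inhibitor of G protein signalling that can bind B ephrins, fell most, from 2069.9 ± 356 to 743 ± 128 normalized counts (SD, n = 4 and n = 3), with a log2 fold change of -1.47 ± 0.17 (SE, adjusted p = 0.00157). Met, the hepatocyte growth factor receptor and a partner of B plexins, fell by 1.32 on the log2 scale (adjusted p = 0.00562). Pak1, a kinase downstream of Rac and Cdc42, and Mical3, of the plexin-linked family of actin oxidases, fell by 0.89 and 0.73 (adjusted p = 0.00168 and 2.12e-04). At the other end, Ablim3, an actin-binding LIM protein, rose from 117 ± 81.2 to 735 ± 202, with a log2 fold change of 2.66 ± 0.55 (SE, adjusted p = 0.0140). Crmp1, a collapsin response mediator of semaphorin signals, Grip1, a scaffold that binds B ephrins, and Draxin, a secreted ligand of Dcc, rose as well, with adjusted p of 0.0139, 0.00801 and 0.0165 and normalized counts from 2745 ± 1234 to 9451 ± 2152, from 838 ± 315 to 2661 ± 332 and from 341 ± 150.4 to 962 ± 116. Without knockout replicate 2, 7 of these 72 genes were higher and 7 lower, beside 850 and 1317 of all 18352 genes. Without knockout replicate 1, 13 were higher and 7 lower, beside 1209 and 1254. With all libraries 2122 of all genes were higher and 2246 lower, so calls became fewer across all genes too. Without knockout replicate 3, 7 of the 72 were lower, beside 1498 of all genes. With the ribosomal read share as covariate 22 of the 72 were higher and 18 lower, beside 2673 and 2482 of all genes.

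The remaining members lay at the edge of detection. Ntn5 had at most 9 counts and Plxna4os2 at most 15 in any library, and Plxna4os3 had 1 count in each of 3 libraries and 0 in the others. Where a library held 0 counts, up to 3 counts are still possible, a share of 5.03e-06% to 9.03e-06% of its total in the 5 libraries where a member was at 0, from counting error alone.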

How the data were processed

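RNA-seq counts of 7 libraries of primary mouse oligodendroglia were used. According to the submitters' processing notes, the authors trimmed reads with Trimmomatic 0.36, mapped them with STAR 2.5.2b to GRCm38 and counted them per gene with featureCounts of Subread 1.5.2. The deposited values are whole-number counts per gene without normalization. Annotation release and strand setting are not given in the sources used here. Of the 49315 identifiers, 48970 had a symbol in the table of gene names, and 61 of the 71 members had the same start and end in GENCODE M21.

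Counts were tested in R 4.3.3 with edgeR 4.0.16 (filterByExpr by group, TMM, robust quasi-likelihood fit, group as the only term), with Benjamini-Hochberg adjustment over the 18352 genes tested and two-sided p-values. FPKM values were computed here from the normalized counts and the exon length in the files. A higher or lower gene had an adjusted p of at most 0.05, and the fold threshold, that of the study, adds a log2 fold change of 1 or more in size. Alternatives were DESeq2 1.42.0, limma 3.58.1 with voom, DESeq2's size factors, total counts, 2 other filters on low counts, the ribosomal RNA share as a covariate, control replicates 1 and 2 only, each library left out and a replicate block. The members, the gene lists and the rule below were chosen with earlier results of these data known. The values of 1 oligodendrocyte marker are not reported here and are not in that list's sum.

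Genes named with values are, in each family, the most abundant member and that with the smallest p, the 8 lowest and 8 highest log2 fold changes among members past the threshold, the 4 lowest and 4 highest of the pathway list, and Klf13. Dcc, Robo1 and Plxnb2 are given by library outside this rule and were chosen after their values were seen. Other members are given by counts, range or log2 fold change. Precision is limited by the library sizes of 24507471 to 59596479 counts and by 4 and 3 libraries. The sources do not state what same-numbered libraries have in common. Across the 18352 genes, deviations from the group means correlated at 0.11, 0.46 and 0.17 in the 3 pairs with the same number and at -0.53 to 0.20 in the others. Only the correlation of 0.46, of the libraries numbered 2, was above all those of pairs with different numbers. The correlations thus do not settle whether the numbers pair the libraries, and the replicate block enters as an alternative only. Promoter windows came from RefSeq (GRCm38.p6), where 58 members had one.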

Additional observations from a re-analysis of the deposited data

Results flagged for a closer look

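Among the control values of 38 named genes, 4 held a library whose gap to the nearest other control exceeded Dixon's 95% critical value for 4 samples. Chance flags about 1 in 20 such groups. Control replicate 3 was high for Nrp1, with 3403 normalized counts, for Nrp2, with 4906, and for Epha4, with 2764, and control replicate 4 was high for Sema3d, with 11743. Control replicate 3 also held the highest sum of microglia markers, at 644.9 FPKM, and of fibroblast and mural cell markers, at 133.7 FPKM. The part of such cells in these values was not tested.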

How the results depend on the processing

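No member past the threshold changed direction under any of the 16 alternatives that tested it (Epha6 and Epha8 were not tested with at least 10 counts in every library). With each library left out in turn, 9 to 19 members were higher (17 with all libraries) and 7 to 13 higher at the fold threshold (12). Of the pathway list 7 to 19 were higher (20) and 7 to 13 lower (11). Over all genes tested, 850 to 1843 were higher (2122) and 1254 to 2032 lower (2246). The fewest higher members, and the fewest higher genes, were found without knockout replicate 2. With control replicates 1 and 2 only, 6 members were higher at the fold threshold. At the adjusted p alone that fit ended 8 calls, those of Efna1, Efna3, Efna4, Epha4, Epha8, Sema4a, Sema4c and Sema6c. It added 2, those of Plxnd1 and Unc5c. Over all genes 1177 were higher in it (2122 with all libraries) and 1489 lower (2246). With the ribosomal share as a covariate 18 pathway genes were lower, and 7 members that had not passed did so, namely Efna2, Efnb1, Ephb6, Ntn4, Plxnd1, Sema6b and Unc5c, with none lost. DESeq2 added Plxnd1 and Unc5c and lost none. Without a filter on low counts Efna1, Plxnc1 and Slit1 no longer passed, with total counts Efna1, Sema4a and Sema4c, and with limma Sema4a. The cause was not tested, beyond the fewer samples of the fits that leave out libraries. Calls were kept whichever library was left out in 9 of the 17 higher and 11 of the 15 lower members.

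In the replicate block, 19 members were higher and 13 lower. It ended the calls of Efna1 and Sema4a, added those of Plxnb1 and Plxnd1, and changed no other call of a member at the adjusted p alone. At the fold threshold, 9 in place of 12 members were higher in it, since Efnb2, Plxna2 and Robo1 had log2 fold changes of 0.97, 0.97 and 0.89, and 6 were lower as before, with Slit2 (-0.99) out and Sema4f (-1.01) in.

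Some members that did not pass turned in sign, in 10 of the 16 alternatives: Efnb1, Efnb3, Epha7, Nrp1, Nrp2, Ntn1, Plxna4os1, Sema3f, Slit3 and Unc5a. The log2 fold change of Efnb3 was -0.16 with control replicates 1 and 2 only, -0.13 in the replicate block and -0.28 to 0.38 with 1 library left out. That of Ntn1 was 0.063 with control replicates 1 and 2 only, 0.061 with the ribosomal share and -0.14 to 0.026 with 1 library left out, and that of Nrp1 was 0.14 with control replicates 1 and 2 only and -0.45 to 0.12 with 1 library left out. That of Nrp2 was -0.0011 to 0.65 with 1 library left out. Plxna4os1, at -0.29 with all libraries, was at 0.12 with limma, 0.08 with the ribosomal share, 0.71 with control replicates 1 and 2 only and 0.75 without control replicate 3. The turned values of Efnb1, Epha7, Sema3f, Slit3 and Unc5a reached -0.09, -0.04, -0.01, -0.13 and -0.04. The cause was not tested. Too few counts kept 5 members out of the test, and the filter of at least 10 counts in every library left 62 of the 66.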
